A study of Homo sapiens with 4 samples.

Results

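The mRNA levels of 7 matrix metalloproteinases (MMP1, MMP2, MMP3, MMP7, MMP9, MMP10 and MMP14) and 3 tissue inhibitors of metalloproteinases (TIMP1, TIMP2 and TIMP3) were examined in HeyC2 and SKOV3, established human ovarian cancer cell lines. These 10 genes were named by symbol among the 26506 genes of the expression tables. MMP1 was selected on its measured fall after TET1 expression in both lines, and the other members were added as its family, so the changes below are descriptions and not tests. Cells of each line had been transfected with a pCMV6 plasmid that carries full-length TET1, the DNA demethylase, or with the empty plasmid (control), and all cultures were kept under Geneticin selection. Each condition is thus 1 selected cell population and was sequenced as 1 library, 4 in all, so no difference has a replicate check and no p-value is given.

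MMPs are zinc-dependent proteases that cut the extracellular matrix and cell-surface proteins. Most are secreted as inactive proenzymes, and TIMPs bind their active sites and hold them inactive. In ovarian cancer the family is known for its part in invasion through the mesothelium and its collagen-rich matrix. MMP1 is an interstitial collagenase, MMP3 and MMP10 are stromelysins, MMP7 is matrilysin, MMP2 and MMP9 are gelatinases, and MMP14 is a membrane-anchored collagenase that also activates pro-MMP2.

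MMP1, MMP3, MMP7 and MMP10 lie together on the minus strand of chromosome 11 (GRCh37), with MMP7 from 102391239 to 102401481, MMP10 from 102641233 to 102651359, MMP1 from 102660132 to 102668891 and MMP3 from 102706532 to 102714340. The other members are dispersed, with MMP2 on chromosome 16 (55423612 to 55540603), MMP9 on 20 (44637547 to 44645200), MMP14 on 14 (23305769 to 23318250), TIMP1 on X (47441807 to 47446188), TIMP2 on 17 (76849059 to 76921469) and TIMP3 on 22 (33197691 to 33259028). RefSeq promoter windows (GRCh38.p14) were matched for 5 of the 10 members, MMP7, MMP10, MMP14, TIMP1 and TIMP3. The 250 bases before the start of MMP7 (chr11:102530748-102530997, minus strand) and MMP10 (chr11:102780629-102780878, minus strand) are shown. MMP7 was the most raised gene in SKOV3 when 1 FPKM was added to each level, and it ranked lower with smaller additions. MMP10, of the same chromosome 11 group, had at most 10 fragments in any library. Both windows hold a match to each of 2 searched patterns. Capitals mark TGANTCA, a loose form of the site bound by AP-1 factors in which N is any base, and TATAAA, the TATA box. TIMP3 (chr22:32801455-32801704, plus strand) is shown because it had the most CG pairs among the 5 matched members. CG pairs are the sites that DNA methylation uses, and in TIMP3 the capitals mark CG.
MMP7: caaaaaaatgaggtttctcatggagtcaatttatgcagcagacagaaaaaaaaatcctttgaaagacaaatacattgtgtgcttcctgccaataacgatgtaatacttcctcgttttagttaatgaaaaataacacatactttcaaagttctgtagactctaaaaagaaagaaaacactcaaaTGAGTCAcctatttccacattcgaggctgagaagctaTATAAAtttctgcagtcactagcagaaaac
MMP10: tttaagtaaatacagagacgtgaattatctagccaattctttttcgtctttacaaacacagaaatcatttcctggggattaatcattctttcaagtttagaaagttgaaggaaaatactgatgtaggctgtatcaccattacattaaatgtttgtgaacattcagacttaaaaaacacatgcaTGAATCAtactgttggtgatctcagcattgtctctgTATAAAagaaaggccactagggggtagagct
TIMP3: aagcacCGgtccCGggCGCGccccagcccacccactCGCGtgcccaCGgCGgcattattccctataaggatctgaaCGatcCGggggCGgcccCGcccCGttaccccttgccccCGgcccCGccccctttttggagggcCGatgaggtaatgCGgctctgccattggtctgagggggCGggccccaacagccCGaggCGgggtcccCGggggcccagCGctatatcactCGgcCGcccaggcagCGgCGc
In both MMP windows the TGANTCA match began 67 bases before the start, and the TATA box began 30 bases before it in MMP7 and 31 in MMP10. The matches differ at N, which is G in MMP7 and A in MMP10. Both strands were searched, and the motifs did not overlap. Of 35116 promoter windows of this length, 6.57% held TGANTCA, 10.7% held TATAAA and 1.07% held both. Neither motif was in the windows of MMP14, TIMP1 or TIMP3. The number of CG pairs was 2 in MMP10, 3 in MMP7, 7 in MMP14, 12 in TIMP1 and 26 in TIMP3, against a median of 11 over all windows, and 17.7% of windows held more than TIMP3. No DNA methylation value was analysed here.

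Levels are given as FPKM, fragments scaled to transcript length and to the mapped total, which can be compared between genes. The deposited TET1 values had been multiplied by 1 constant per line that set GAPDH equal to its control, 3.23 in HeyC2 and 1.35 in SKOV3, and this was undone here unless stated. The step was inferred from the spacing of the values and the equal GAPDH values, and no source used here names it. The depth, recovered from the spacing of low FPKM values, was between 6660000 and 7490000 fragments per library. TET1 itself went from 0.20 FPKM without the TET1 plasmid to 0.52 with it in HeyC2, and from 0.43 to 1.80 in SKOV3. Both HeyC2 levels and the SKOV3 control level were below 1 FPKM. No fragment count or counting interval was made for TET1, so these rises are given as values only. ERBB2, which is amplified in SKOV3, was at 1282 and 1464 FPKM in the SKOV3 control and TET1 libraries and at 20.1 and 23.8 in HeyC2. Of the markers of ovarian and other epithelial cells, KRT8, KRT18 and PAX8 were between 74.6 and 775 FPKM in all 4 libraries. MUC16 and WT1 were below 1 FPKM in all of them. Other epithelial markers were low or absent in HeyC2, where CDH1 was listed at 0 in both libraries. EPCAM was at 0.09 FPKM in the HeyC2 control and 0.38 with TET1, and KRT19 was at 0.62 and 1.59. Of the 9 epithelial markers, 5 passed the filter described below in HeyC2 (1 higher, 0 lower). In SKOV3 7 passed, with 2 higher (CDH1 and PAX8) and 2 lower (KRT19 and MUC1). KRT19, an epithelial keratin, was at 255 FPKM in control SKOV3 cells and 0.46 with TET1, the lowest relative log2 change of the 13013 SKOV3 genes (-7.65). Fibroblast markers summed to 1.11 FPKM over 7 genes in control SKOV3 cells and to 35.4 with TET1, where COL1A1 gave 27.7 and LUM 4.32 and DCN and PDGFRB were listed at 0. Of these 7 genes, 3 passed the filter in SKOV3 (COL1A1, COL1A2 and LUM), and all 3 were called higher. Each was below 1 FPKM in the control and passed only through the TET1 library, so the filter favoured this direction. In HeyC2, 2 passed (1 higher, 0 lower), and the sums were 2.14 and 2.99 FPKM. The 6 immune markers summed to 57.7 and 93.3 FPKM in HeyC2 (2 passed, CD68 and LYZ, both higher) and to 15.3 and 23.0 in SKOV3 (2 passed, 0 called), with CD3E listed at 0 throughout. The 3 endothelial markers summed to 19.4 and 94.8 FPKM in HeyC2, nearly all of it CDH5 (1 passed, higher), and to at most 0.36 in SKOV3 (0 passed). Over all genes, 12.5% were called higher and 9.17% lower in HeyC2, and 20.7% and 18.2% in SKOV3. The part of these marker shifts in the results below was not tested.

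**Figure D1:**
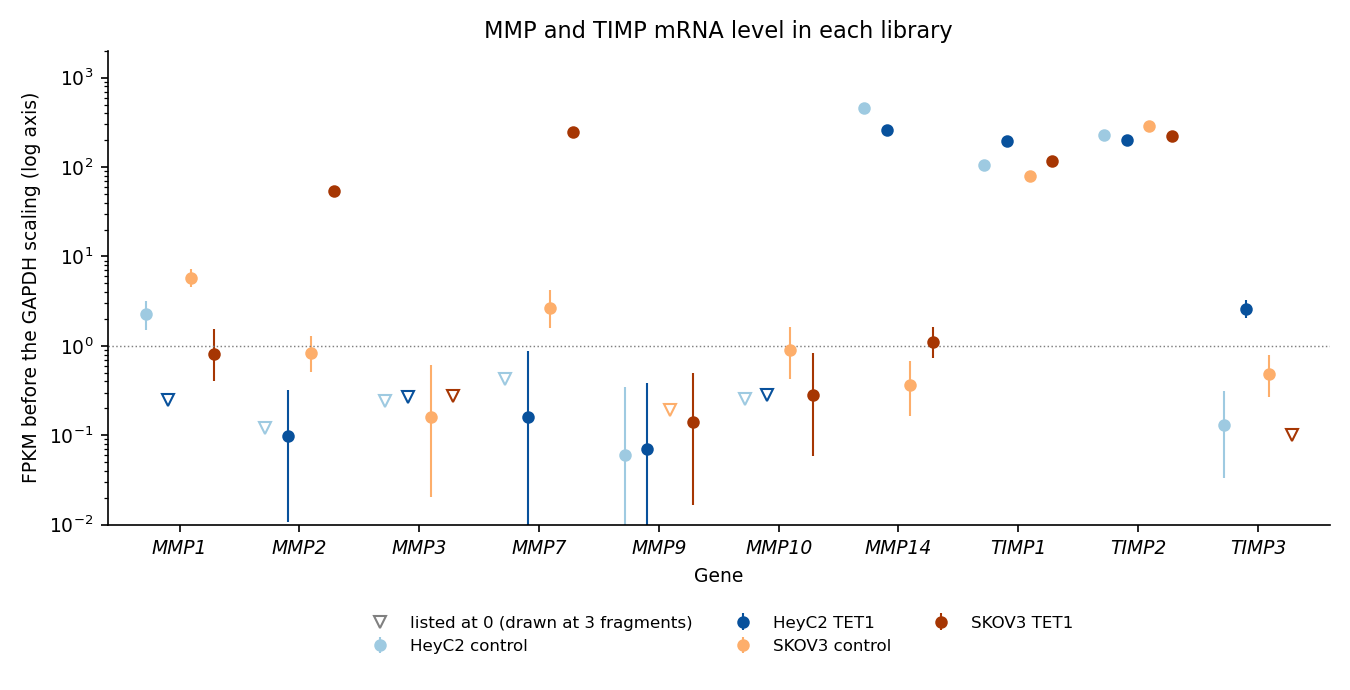
FPKM before the GAPDH scaling (log axis) of the 7 MMPs and 3 TIMPs in the 4 libraries, with bars for the 95% counting interval and open triangles, drawn at the level of 3 fragments, for genes listed at 0. MMP2 and MMP7 stand out in SKOV3 TET1 at 54.5 and 246 FPKM, MMP14 is high in the HeyC2 libraries, and TIMP1 and TIMP2 lie between 79.0 and 288 FPKM in every library.

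The empty-plasmid controls of the lines already held different proteases. In the HeyC2 control, MMP14 alone made up 99.5% of the summed MMP level of 460 FPKM, and in the SKOV3 control the 7 MMPs summed to only 10.7 FPKM, of which MMP1 was 54.0%. TIMP levels were alike in size, with sums of 334 FPKM in HeyC2 and 367 in SKOV3, most of it TIMP2. Changes were measured as log2((FPKM + 1)/(FPKM + 1)) minus the median of this over all genes with a mean of at least 1 FPKM in the libraries compared, and a gene was called at 1.5-fold from that median. Between the controls, 5 members passed the filter, 2 were called higher in SKOV3 (MMP1 and MMP7) and 2 lower (MMP14 and TIMP1), beside 28.6% and 29% of all 12488 genes. MMP14 was at 457 FPKM in HeyC2 and 0.37 in SKOV3 (12080 against 9 estimated fragments), the second lowest relative log2 change of all genes at -8.65. Its level was 1236-fold lower in SKOV3 (95% counting interval 674 to 2799). MMP2, MMP3, MMP7 and MMP10 were listed at 0 in the HeyC2 control and were at 0.84, 0.16, 2.67 and 0.89 FPKM in the SKOV3 control. Against a floor of 3 fragments in the HeyC2 library, MMP7 was at least 6.29-fold and MMP10 at least 3.52-fold higher in SKOV3. The 95% counting intervals of these ratios, which add the error of the SKOV3 fragments, began at 4.61-fold and 2.35-fold. These intervals and floors cover counting error only.

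With TET1, 5 members passed the filter in HeyC2, of which 2 were called higher (TIMP1 and TIMP3), beside 12.5% of all 11894 genes, and 2 lower (MMP1 and MMP14), beside 9.17%. In SKOV3, 5 members passed, 2 were called higher (MMP2 and MMP7), beside 20.7% of all 13013 genes, and 1 lower (MMP1), beside 18.2%. MMP1 in both lines, TIMP3 in HeyC2 and MMP2 in SKOV3 passed the filter only through the library in which each was high. These counts are therefore no support for a change of the family. The median relative change of the members that passed was -0.23 in HeyC2 and 0.36 in SKOV3, where the median over all genes is 0 by construction. MMP1 was the only member called in the same direction in both lines, which is what it was picked for. Each line's comparison used its own control, and the comparison of the controls shares a library with each of them.

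**Figure D2:**
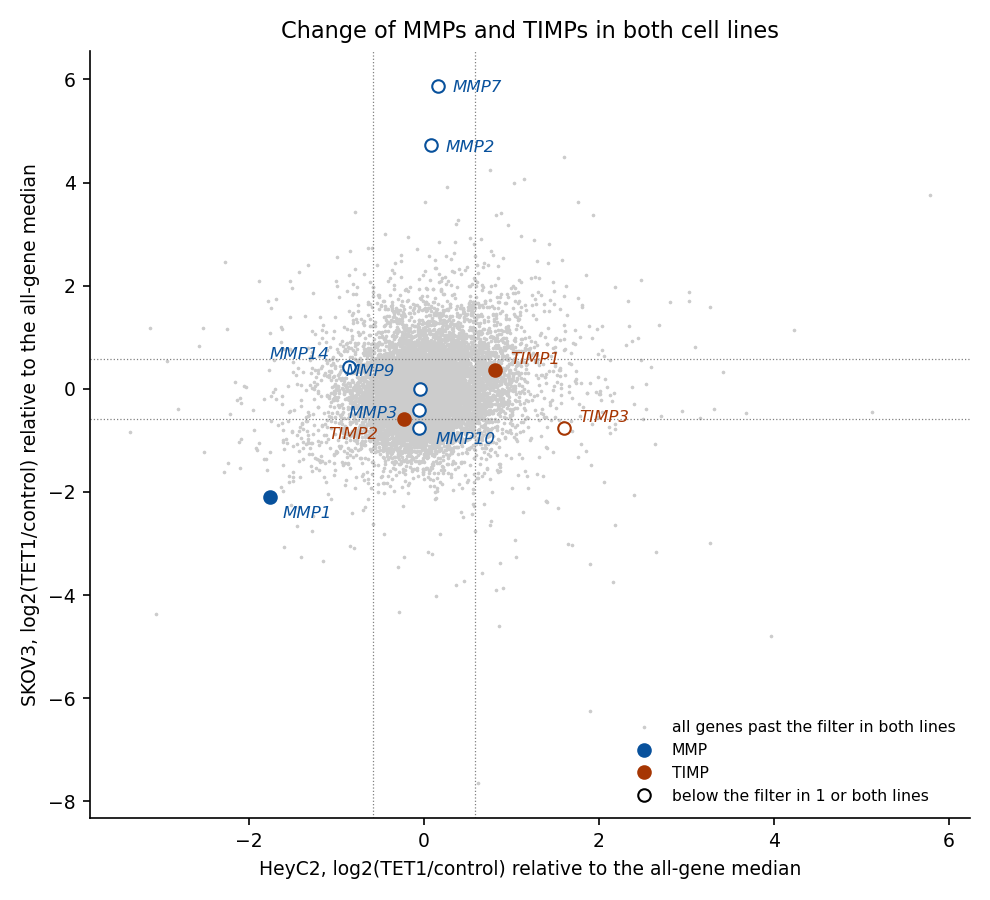
Relative log2 change with TET1 in HeyC2 (horizontal) and SKOV3 (vertical) for the 10 members over all genes past the filter in both lines (grey), with dotted lines at 1.5-fold and open circles for members below the filter in at least 1 line. MMP7 and MMP2 lie at 5.88 and 4.72 in SKOV3 and near 0 in HeyC2, and MMP1 lies in the lower left at -1.76 and -2.11.

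MMP1, the collagenase that opens the triple helix of fibrillar collagen, was at 2.26 FPKM in control HeyC2 cells and 0 with TET1, and at 5.79 FPKM in control SKOV3 cells and 0.80 with TET1. These levels correspond to about 30, 0, 74 and 10 fragments. Its order was thus SKOV3 control, HeyC2 control, SKOV3 TET1 and HeyC2 TET1. In HeyC2 the level was at least 9.12-fold lower with TET1, taking 3 fragments as the floor of the TET1 library, and the 95% counting interval of the ratio, which adds the error of the control, began at 6.88-fold. In SKOV3 it was 7.21-fold lower (95% counting interval 3.55 to 15.0). The relative log2 changes were -1.76 and -2.11, the 54th lowest of 11894 genes in HeyC2 and the 101st lowest of 13013 in SKOV3. In all, 283 of the 11134 genes past the filter in both lines (2.54%) were called lower in both. WTAPP1, which overlaps MMP1, MMP3 and MMP10 on the opposite strand, was listed at 0 in all 4 libraries.

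The 5 genes whose pattern lay nearest to MMP1 were sought among those 11134 genes, by Euclidean distance over both relative log2 changes and the log2 difference between the controls. They were CCNB1 (distance 0.62), HJURP (0.73), OAS3 (0.74), DIAPH3 (0.78) and AURKA (0.86). CCNB1 is the B-type cyclin of mitotic entry, HJURP loads the centromeric histone, AURKA is a mitotic kinase, DIAPH3 is a formin that builds actin filaments, and OAS3 is an interferon-induced synthetase. CCNB1, the nearest, went from 49.2 to 15.8 FPKM with TET1 in HeyC2 and from 154 to 46.5 in SKOV3. All 5 were more abundant than MMP1 in each of the 4 libraries. The measure compares differences between libraries, but it depends on level through the pseudocount of 1 FPKM, which shrinks those of a low gene. In SKOV3, MMP1 was 7.21-fold lower with TET1 as a plain ratio and 4.3-fold lower in the measure, which is also centred. Nearness with other pseudocounts was not tested.

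The stromelysins MMP3 and MMP10, which cut proteoglycans and basement membrane proteins, were near the floor. MMP10 was at 0.89 FPKM in control SKOV3 cells and 0.28 with TET1, about 10 and 3 fragments, and was listed at 0 in both HeyC2 libraries. Its ratio of TET1 to control in SKOV3 was 0.317, with a counting interval from 0.0569 to 1.25, so a change was not detectable at this depth. MMP3 was at 0.16 FPKM in the SKOV3 control, about 2 fragments, and was listed at 0 in the other 3 libraries. No fold is given for MMP3, nor for MMP10 in HeyC2. Neither gene passed the filter in any comparison.

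MMP7, one of the smallest proteases of the family and one made mostly by epithelial cells, ranked first among the SKOV3 genes. It was at 2.67 FPKM in control SKOV3 cells and 246 with TET1 (331 as deposited), about 18 and 1547 fragments. In HeyC2 it was listed at 0 in the control and was at 0.16 FPKM with TET1, which is about 1 fragment. The SKOV3 TET1 level was 92.2-fold higher than its control (95% counting interval 58.1 to 156), and its relative log2 change of 5.88 was the highest of 13013 genes with a pseudocount of 1 FPKM. On the same stretch of chromosome 11, MMP1 went down in this line and MMP10 had the lower value in TET1.

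MMP2, the gelatinase that degrades type IV collagen, was second in that ranking, which it entered through its TET1 level, its control lying below 1 FPKM. It was at 0.84 FPKM in control SKOV3 cells and 54.5 with TET1 (73.4 as deposited), about 20 and 1213 fragments. In HeyC2 it was listed at 0 in the control and was at 0.10 FPKM with TET1, about 2 fragments. The SKOV3 ratio was 64.9 (95% counting interval 41.9 to 107), and the relative log2 change was 4.72. The rank depends on the pseudocount, since with 0.1 and 0.01 in place of 1 MMP7 ranked 7 and 56 and MMP2 ranked 15 and 64, as genes near 0 FPKM moved ahead of them. MMP9, the other gelatinase, was between 0 and 0.14 FPKM in the 4 libraries, at most 2 fragments, and could not be compared.

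MMP14, the membrane-type protease that cleaves pro-MMP2 together with TIMP2, was the most abundant member in HeyC2. It was at 457 FPKM in the HeyC2 control and 262 in HeyC2 TET1, about 12080 and 6233 fragments. The level with TET1 was 1.74-fold lower (95% counting interval 1.69 to 1.80), and the relative log2 change was -0.86. As deposited, the TET1 value is 848 FPKM, so MMP14 is higher than in the control on the GAPDH-scaled values without centring, on which 95.8% of all genes are called higher. In SKOV3 it was at 0.37 FPKM in the control and 1.10 with TET1, about 9 and 26 fragments, with a ratio of 2.97 (95% counting interval 1.41 to 7.51), and did not pass the filter. MMP2 and MMP14 were therefore never high in the same library, since MMP2 reached 54.5 FPKM where MMP14 was at 1.10. This covers MMP14 only. In that SKOV3 TET1 library, MMP15, also of the membrane type, was at 33.7 FPKM and MMP24 at 15.7.

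TIMP2, which inhibits MMPs broadly and joins MMP14 in the activation of pro-MMP2, was the most abundant inhibitor in every library. It was at 228 FPKM in control HeyC2 cells and 202 with TET1, and at 288 in control SKOV3 cells and 220 with TET1. Its relative log2 change was -0.23 in HeyC2 and -0.58 in SKOV3, where 1.49-fold was just inside the limit of 1.5-fold, and it was not called in either line. It shares its strand and part of its span with CEP295NL, which was at most 0.78 FPKM. TIMP1, an inhibitor of most soluble MMPs, went from 106 to 195 FPKM with TET1 in HeyC2 and from 79.0 to 116 in SKOV3. The relative log2 change was 0.82 in HeyC2, where the gene was called higher, and 0.36 in SKOV3, where it was not. The ratios of TET1 to control were 1.84 (95% counting interval 1.64 to 2.07) and 1.47 (1.28 to 1.70).

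TIMP3, which stays bound to the matrix and also inhibits ADAM proteases, had opposite directions in the lines. It was at 0.13 FPKM in the HeyC2 control and 2.58 in HeyC2 TET1, about 4 and 77 fragments, a ratio of 19.8 (95% counting interval 8.03 to 80.5). In SKOV3 it was at 0.48 FPKM in the control, about 15 fragments, and was listed at 0 with TET1, at least 4.71-fold lower against a floor of 3 fragments, with a 95% counting interval from 3.35-fold. The relative log2 change was 1.61 in HeyC2, where it was called higher, and -0.76 in SKOV3, where it did not pass the filter. TIMP3 and TIMP1 lie within the spans of SYN3 and SYN1 on the opposite strand, and the counting is not stated to use strand. SYN3 was listed at 0 in all 4 libraries, and SYN1 was at most 0.75 FPKM.

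Summed over the 7 MMPs, the level went from 460 FPKM in the HeyC2 control to 263 with TET1, and from 10.7 in the SKOV3 control to 303 with TET1. The sum of the 3 TIMPs was 334 and 399 FPKM in HeyC2 and 367 and 336 in SKOV3. In the SKOV3 TET1 library MMP7 made up 81.2% of the MMP sum, and in the HeyC2 TET1 library MMP14 made up 99.9%. Among these 7 MMPs, the gene with most of the sum thus differed by line and, in SKOV3, by condition. In control SKOV3 cells, MMP24 (13.3 FPKM) and MMP15 (10.3 FPKM), which are not among the 7, were above MMP1 at 5.79 FPKM.

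Further MMPs and TIMP4 were read from a list of 18 genes, of which 6 passed the filter in HeyC2 (1 higher, 0 lower) and 5 in SKOV3 (2 higher, 0 lower). Over all genes the shares were 12.5% higher and 9.17% lower in HeyC2 and 20.7% higher and 18.2% lower in SKOV3, and 1 of 6 and 2 of 5 genes are too few to set apart from them. The median relative change was 0.24 in HeyC2 and 0.07 in SKOV3. MMP15, another membrane-type MMP, was called higher in both lines, from 0.70 to 1.69 FPKM in HeyC2 (relative log2 change 0.61) and from 10.3 to 33.7 in SKOV3 (1.43). MMP17, anchored to the membrane by a lipid tail, was called higher in SKOV3 (1.09) and was at -0.52 in HeyC2. MMP15 in HeyC2 and MMP17 in SKOV3 were below 1 FPKM in the control and passed the filter only through the TET1 library. MMP11 had 0.54 in HeyC2 and MMP28 -0.37 in SKOV3, neither of them called. MMP8, MMP12, MMP20, MMP26 and MMP27 were listed at 0 in all 4 libraries. Of the 15 genes of the chromosome 11 cluster and its neighbours, 7 passed the filter in each line, with 3 higher and 1 lower in HeyC2 and 1 higher and 1 lower in SKOV3, the members MMP7 and MMP1. The shares over all genes were 12.5% and 9.17% in HeyC2 and 20.7% and 18.2% in SKOV3, and the list's medians were 0.12 and -0.39. The flanking genes TMEM123 (0.69 in HeyC2, 0.05 in SKOV3) and DYNC2H1 (0.67 and 0.43) were called higher in HeyC2 and not in SKOV3.

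The plasminogen system, whose protease plasmin can activate several pro-MMPs, had 6 of 7 genes past the filter in HeyC2 (0 higher, 2 lower) and 5 in SKOV3 (2 higher, 1 lower), with medians of -0.40 and 0.25. All-gene shares stood at 12.5% higher and 9.17% lower in HeyC2 and at 20.7% and 18.2% in SKOV3. The urokinase receptor PLAUR went from 110 to 53.0 FPKM in HeyC2 (relative log2 change -1.09) and the inhibitor SERPINB2 from 4.27 to 1.70 (-1.02). In SKOV3 the activator PLAT was higher (1.01) and the inhibitor SERPINE2 lower (-0.88). Of 10 genes that process MMPs or control them at the surface, 8 passed in HeyC2 (0 higher, 1 lower) and all 10 in SKOV3 (4 higher, 4 lower, against 20.7% and 18.2% of all genes). The medians were 0.01 and -0.12. CD44, a hyaluronan receptor that docks MMPs, was called lower in both lines (-0.94 and -0.68). The endocytic receptor LRP1 (1.61) and lipocalin LCN2 (0.94), which binds MMP9, were higher in SKOV3, and the convertases PCSK5 (-1.28) and PCSK7 (-0.96) were lower there. RECK, a membrane-bound MMP inhibitor named here after its values were seen, was at 0.39 in HeyC2 and was called higher in SKOV3 (0.66).

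ADAM and ADAMTS proteases, relatives of the MMPs, had 14 of 22 genes past the filter in HeyC2 (2 higher, 1 lower) and 16 in SKOV3 (7 higher, 2 lower). The background was 12.5% and 9.17% of all genes in HeyC2 and 20.7% and 18.2% in SKOV3. Their median relative change was -0.01 in HeyC2 and 0.56 in SKOV3. Of those called higher in SKOV3, ADAM8, ADAM19, ADAMTS2, ADAMTS7 and ADAMTS10 were below 1 FPKM in the control. They passed the filter only through the TET1 library, whereas ADAMTS13 and ADAMTS15 were above 1 FPKM in the control. The SKOV3 count and median are therefore no support for a rise of the list. ADAMTS2, a procollagen processing enzyme, was higher in SKOV3 (relative log2 change 3.10), and ADAMTS7 went from 0.13 to 6.69 FPKM (2.58). ADAMTS10 was called higher in both lines (2.38 in HeyC2 and 0.92 in SKOV3), in each of which it passed only through the TET1 library. ADAMTS1, which cuts proteoglycans, was called lower in both (-0.69 and -2.35).

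Transcription factors known to act on MMP promoters were all past the filter (16 of 16 in each line), with 3 higher and 2 lower in HeyC2 and 5 higher and 5 lower in SKOV3. Beside 12.5% and 9.17% of all genes in HeyC2 and 20.7% and 18.2% in SKOV3, the HeyC2 counts lay near the background. The SKOV3 counts, 5 and 5 of 16, are too few to set apart from it. The list's medians were 0.09 and -0.23. FOS went from 12.4 to 138 FPKM in HeyC2 (relative log2 change 3.32), JUNB from 43.8 to 210 (2.18) and FOSB from 1.84 to 8.47 (1.68), whereas in SKOV3 these genes were at -0.39, -0.69 and -0.62, of which JUNB and FOSB were called lower. FOSL1 went from 132 to 10.4 FPKM in SKOV3 (-3.74) and was at 0.46 in HeyC2. FOSL2, another AP-1 gene, named after its values were seen, was called higher in SKOV3 (0.80) and was at -0.17 in HeyC2. ETS2 was called lower in both lines (-0.85 and -1.19). MMP1 was thus lower both where FOS, FOSB and JUNB were higher and where FOSL1 was lower, and the part of these factors was not tested.

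Matrix genes that MMPs cut had 6 of 12 genes past the filter in HeyC2 (1 higher, 2 lower) and 8 in SKOV3 (3 higher, 2 lower), with medians of -0.20 and 0.20, where 12.5% and 9.17% of all genes were called in HeyC2 and 20.7% and 18.2% in SKOV3. COL1A1, a chain of the fibrillar collagen that MMP1 cuts, was called higher in both lines, from 0.57 to 1.76 FPKM in HeyC2 (relative log2 change 0.76) and from 0.32 to 27.7 in SKOV3 (4.25). COL5A1 (28.1 to 93.2 FPKM) and COL1A2 (1.27) were also called higher in SKOV3. COL1A1 in both lines and COL1A2 in SKOV3 were below 1 FPKM in the control and passed the filter only through the TET1 library. COL5A1 (-0.75) and FN1, from 5557 to 2619 FPKM (-1.14), were called lower in HeyC2. COL4A1 was called lower in SKOV3, from 97.85 to 57.4 FPKM (-0.95). FN1 in SKOV3 (0.28) and COL4A1 in HeyC2 (0.13) were not called. FN1 and COL4A1 were named after their values were seen.

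**Figure D3:**
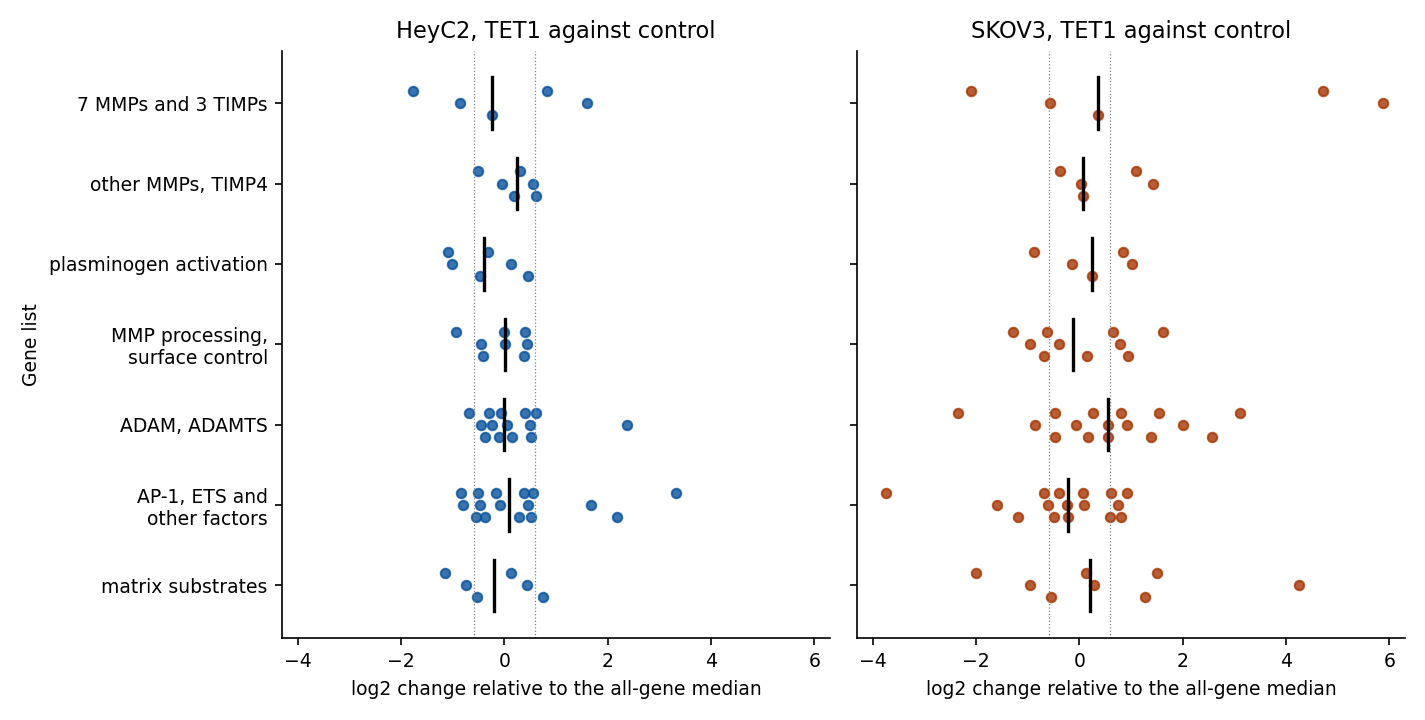
Relative log2 change with TET1 in HeyC2 (left) and SKOV3 (right) of each gene past the filter, by list, with black bars for list medians and dotted lines at 1.5-fold. The 2 rightmost points in SKOV3 are MMP2 and MMP7 at 4.72 and 5.88, and the lowest AP-1 point there is FOSL1 at -3.74.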

How the data were processed

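RNA sequencing of 4 libraries (HeyC2 and SKOV3, control and TET1, 1 each) was used. The authors sequenced paired-end TruSeq libraries, aligned reads to hg19 with Bowtie2 2.2.6 and deposited FPKM from RSEM 1.2.17, per the labels. The annotation, filters and read totals are not given in the sources used here. The deposited TET1 columns carry a further constant, recovered from the value steps (0.01 FPKM in the controls), on whose grid 100% of distinct values below 40 FPKM lay within 0.0055 FPKM, and they were divided by it. Fragments were estimated from the recovered depth (genes with 1 transcript, fragment length 175) and GENCODE transcript lengths on GRCh37, with exact Poisson and Clopper-Pearson intervals (95%). They are estimates, since the authors' transcript lengths may differ. Changes used a pseudocount of 1 FPKM, which understates changes of low genes, a mean FPKM of at least 1 and centring on the all-gene median. Whether each call holds under other pseudocounts, filters, scalings and thresholds is given in the closing section. The members, lists and tests were chosen with earlier results of these data known. From each other list, up to 4 genes with the largest change in either line and any gene called alike in both lines were named, except for a gene that is not reported here. GAPDH was at 5417 FPKM in the HeyC2 control and 1675 in TET1 before the scaling, and at 2248 and 1671 in SKOV3. The calculations were tested on data made with known constants and depth. Python 3.11.15, numpy 2.4.6, pandas 2.3.3, scipy 1.17.1 and matplotlib 3.10.9 were used.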

Additional observations from a re-analysis of the deposited data

Results flagged for a closer look

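TIMP3 was singled out because its relative log2 change with TET1 had opposite signs in the lines, 1.61 in HeyC2 and -0.76 in SKOV3, each past 1.5-fold in size. The SKOV3 value rests on about 15 fragments in the control and 0 with TET1 and lies below the expression filter, and the HeyC2 control holds about 4 fragments. With 1 library per condition, the difference between the lines was not tested.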

How the results depend on the processing

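No paired analysis was possible because each condition has 1 library and the labels give no replicate numbers, and for the same reason no library could be left out. Values as deposited without centring were added after the data were examined. MMP14 in HeyC2 was the called change that reversed, to 0.89 on the deposited values without centring. Of the changes not called, TIMP2 also changed sign there, to 1.51 in HeyC2 and 0.04 in SKOV3, MMP2 and MMP7 in HeyC2 changed sign on the deposited values with centring (MMP2 to -1.21), and MMP9, at most 2 fragments, changed sign under most settings. On the deposited values without centring, 4 members were called higher in HeyC2 (MMP14 and the 3 TIMPs) and 1 lower, 3 were higher in SKOV3 (TIMP1 in addition), 1 was lower in the SKOV3 control against HeyC2, and 12441 genes were higher and 65 lower in HeyC2 against 1488 and 1091 in the text, and 6702 and 586 in SKOV3 against 2691 and 2362. The deposited values and the missing centring enter together there. Without centring or with upper-quartile scaling, 1 member was lower between the controls, and 28.6% of SKOV3 genes were called higher and 11.5% lower without centring, 27.6% and 11.8% with upper-quartile scaling. With a pseudocount of 0.1 or 0.01, or at 1.2-fold, 2 members were lower in SKOV3 (MMP1 and TIMP2), and at 1.2-fold 3 were higher (TIMP1 in addition). With no filter, 3 were lower in SKOV3 (MMP10 and TIMP3 in addition to MMP1) and 4 were higher between the controls. With a mean FPKM of at least 5, 1 member was higher and 1 lower in HeyC2, 0 were lower in SKOV3 and 0 were higher between the controls, since MMP1, TIMP3 and, between the controls, MMP7 no longer passed. With TPM, 3 were lower in SKOV3 (MMP1, MMP10 and TIMP2) and 3 higher (MMP2, MMP7 and MMP14). At 2-fold, 1 was higher and 1 lower in HeyC2, and 1 higher and 1 lower between the controls, beside 4.11% and 2.82% of all genes in HeyC2, 10.1% and 6.49% in SKOV3 and 17.8% and 18.6% between the controls. At 1.2-fold these shares were 27.8% and 26.3% in HeyC2 and 34.8% and 34.1% in SKOV3. MMP2 and MMP7 were called higher in SKOV3 under every setting run, and MMP1 was called lower in both lines under every setting but the filter at 5. Depth limits MMP3, MMP9 and MMP10, which had at most 10 fragments.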
